A study of Sus scrofa with 15 samples.

Results

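Chondrocytes of adult pig articular cartilage that lack the surface receptor BMPR1B were compared here by whether they carry ITGA4. The comparison takes 6 of the 15 libraries of the study, chosen from the sample labels: 3 libraries of ITGA4+BMPR1B- cells and 3 libraries of ITGA4-BMPR1B- cells, each group with 1 library from pig 2, pig 5 and pig 6. All 6 came from cartilage that was digested to single cells, stained with antibodies to both proteins and sorted by flow cytometry. Both groups are adult cells with no treatment named in the labels, set apart by the ITGA4 gate. Total RNA was sequenced, and the other 9 libraries are ITGA4+BMPR1B+ and ITGA4-BMPR1B+ chondrocytes of the same pigs and CD146+ cells of the synovium. A replicate is a different animal, so the 6 libraries form 3 within-pig pairs.

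ITGA4 encodes the alpha 4 chain of an integrin that pairs with the beta 1 or beta 7 chain and binds fibronectin and VCAM1 on neighbouring cells and matrix. It is best known for the adhesion and traffic of white blood cells. BMPR1B is a receptor of bone morphogenetic proteins, growth factors that drive cartilage formation and keep articular chondrocytes in their state. The chondrocytes of articular cartilage differ by depth, with lubricin-making cells at the joint surface and enlarged, type X collagen-making cells next to bone.

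Values are the deposited signal rescaled to messenger RNA. Every library had been brought to a total of 629194 or 629195 by the authors, and rows of structural RNA, mostly ribosomal, took unequal parts of it: 77.5, 43.9 and 60.7% in ITGA4+BMPR1B- cells of pigs 2, 5 and 6, against 96.2, 70.7 and 71.4% in ITGA4-BMPR1B- cells. Messenger RNA rows held 4.17, 21.0 and 16.8% of the signal in ITGA4+BMPR1B- cells and 2.03, 12.9 and 11.8% in ITGA4-BMPR1B- cells. Each library was therefore rescaled over its 24171 messenger RNA rows, and a value below is this scaled value, brought to a mean total of 1e+06 over the 12 chondrocyte libraries. Read counts were not used here, and steps between low values gave messenger RNA depths that spanned 2.28-fold over the 6 libraries. Relative to the deepest library, these were 0.745, 0.961 and 1 in ITGA4+BMPR1B- cells of pigs 2, 5 and 6. In ITGA4-BMPR1B- cells they were 0.438, 0.593 and 0.668, lower in each pig and without overlap. Depth thus ran with the ITGA4 gate, and its part in the differences of low genes was not tested. Mitochondrially encoded RNA held 25.3 ± 8.70% of the signal in ITGA4+BMPR1B- and 11.7 ± 8.55% in ITGA4-BMPR1B- libraries (SD, n = 3 each), a difference of 13.6 percentage points that was positive in 3 of 3 pigs. The exact sign-change test gave p = 0.25, the smallest that 3 pairs allow. Outside structural RNA, where rows of every kind share what is left, the mitochondrial share was 67.0 ± 12.8% and 53.9 ± 6.19% (SD, n = 3 each), higher in 2 of 3 pigs (exact p = 0.5).

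The libraries carried the transcripts of cartilage cells. COL2A1, the chain of type II collagen, was 11746, 8643 and 11247 in ITGA4+BMPR1B- cells of pigs 2, 5 and 6, and 12733, 23238 and 20794 in ITGA4-BMPR1B- cells. ACAN, the core protein of aggrecan, lay between 1365 and 2764 and SOX9, the transcription factor of the chondrocyte lineage, between 1013 and 3912 over the 6 libraries. The sort itself could not be checked from messenger RNA. ITGA4 was 0.778, 0.635 and 0.0537 in ITGA4+BMPR1B- cells and 0.188, 0.626 and 0.10 in ITGA4-BMPR1B- cells, lower in the positive cells in pig 6 and nearly equal in pig 5. BMPR1B lay between 0.000879 and 0.145 in the 6 libraries, so both transcripts were too low for the test.

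No gene passed the test. Among 9071 genes with a scaled value over 5 in at least 3 of the 12 chondrocyte libraries, limma with the pig as a term called 0 genes at an adjusted p under 0.05 (0% called), and 719 had an unadjusted p under 0.05. Of these, 298 were higher in ITGA4+BMPR1B- cells (3.29% of the genes tested) and 421 were lower (4.64%). The median difference over all genes was -0.02 on the log2 scale, with 47.1% of genes above 0. In 307 genes all 3 ITGA4+BMPR1B- libraries lay above all 3 ITGA4-BMPR1B- libraries (3.38%), and in 387 all lay below (4.27%). Differences below are log2 differences of the scaled value plus 1, ITGA4+BMPR1B- minus ITGA4-BMPR1B-, which understates the change of low genes. In bulk RNA of sorted cells, fewer cells with a transcript cannot be told apart from less of it in each cell. Other scalings and filters called 0 to 2 genes and leaving out libraries 0 to 3, except that the values as deposited, in which the structural RNA share remains, called 1566, of which 1563 were higher. That setting also took rows of every RNA class, used a filter at 1 and tested 6873 rows. Its values are smaller, so the same pseudocount weighed more, and the parts of these changes in its counts and medians were not tested.

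The smallest adjusted p, 0.0718 in limma, was shared by a pair of genes for which the annotation used here gives no name. ENSSSCG00000020405 was listed at the floor of the table in all 3 ITGA4+BMPR1B- libraries, against 32.7, 24.3 and 21.6 in ITGA4-BMPR1B- cells of pigs 2, 5 and 6. ENSSSCG00000024449 was at the floor, at the floor and 1.45 in ITGA4+BMPR1B- cells of pigs 2, 5 and 6, against 4.95, 9.78 and 11.9 in ITGA4-BMPR1B- cells. Array quality weights called both genes. A pseudocount of 5 and a filter at 1 each called ENSSSCG00000020405, also for the difference between its ITGA4 contrasts without and with BMPR1B.

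RGS2, which speeds the shut-off of signals from G protein-coupled receptors, had the smallest p among named genes. It was 29.3, 48.9 and 57.6 in ITGA4+BMPR1B- cells of pigs 2, 5 and 6, against 8.60, 11.2 and 26.0 in ITGA4-BMPR1B- cells. The groups did not overlap, and each pig showed the same direction. The difference was 1.61 on the log2 scale (SE 0.22, 95% interval 1.10 to 2.11), or 3.04-fold, and missed the threshold at a limma adjusted p of 0.193, the third smallest p of all genes. A larger pseudocount of 5 brought the limma adjusted p to 0.0385 and the values as deposited to 0.0379, so the call for RGS2 turned on these settings. The synovial CD146+ libraries held far more of it, with a mean of 684 (459 to 928, n = 3) on a scale shared by all 15 libraries, where ITGA4+BMPR1B- cells averaged 47.7.

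WNT1, a secreted ligand of the canonical WNT pathway, was 135, 115 and 32.2 in ITGA4+BMPR1B- cells and 33.0, 28.6 and 23.7 in ITGA4-BMPR1B- cells of the same pigs. Pigs 2 and 5 showed a wide gap and pig 6 a narrow one, and the ITGA4+BMPR1B- library of pig 6 lay under the highest ITGA4-BMPR1B- library. The difference was 1.47 (SE 0.55, 95% interval 0.20 to 2.73, limma adjusted p = 0.584). On the scale shared by all 15 libraries, WNT1 had a mean of 524 (162 to 1123, n = 3) in the synovial CD146+ libraries. ITGA4+BMPR1B- cells averaged 99.0 on that scale. CD68, a lysosomal membrane protein that is abundant in macrophages and osteoclasts, was 101, 31.4 and 3.87 in ITGA4+BMPR1B- cells, against 2.94, 6.92 and 2.58 in ITGA4-BMPR1B- cells. Its difference of 2.39 (SE 0.97, 95% interval 0.18 to 4.60, limma adjusted p = 0.604) was carried by pigs 2 and 5. Without the ITGA4+BMPR1B- library of pig 2 it was 1.36 (limma adjusted p = 0.598), and the markers of other cells in that library are given beside the lysosomal genes.

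**Figure D1:**
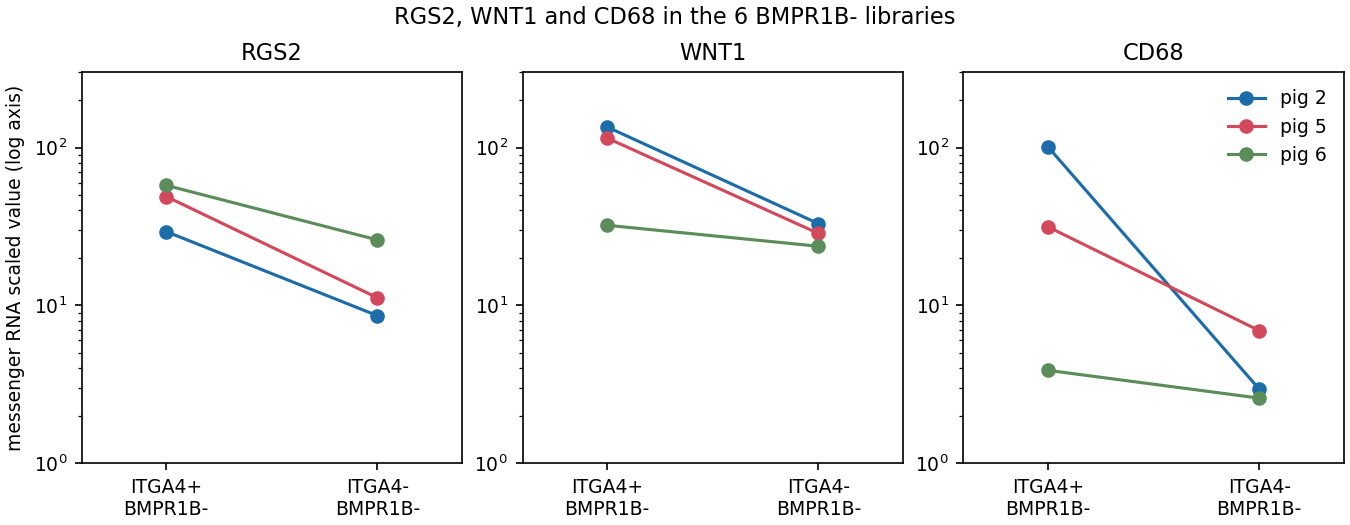
Scaled values of RGS2, WNT1 and CD68 (log axis) in ITGA4+BMPR1B- (left) and ITGA4-BMPR1B- (right) libraries, with a line for each pig. Every line slopes down to the right; RGS2 in ITGA4+BMPR1B- cells (29.3 to 57.6) sits above ITGA4-BMPR1B- cells (8.60 to 26.0), while CD68 spans 3.87 to 101 in ITGA4+BMPR1B- cells.

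The other named genes with the smallest unadjusted p on the higher side had limma adjusted p between 0.289 and 0.435. THBS2, a matrix protein that binds proteases and restrains vessel growth, was 14.1, 14.6 and 23.4 in ITGA4+BMPR1B- cells, against 5.91, 5.68 and 13.0 in ITGA4-BMPR1B- cells (difference 1.05). ZFAND5, a zinc finger protein that stimulates the proteasome, was 64.3, 125 and 92.6 against 38.8, 54.6 and 55.1 (0.88), and TAF13, a subunit of the general transcription factor TFIID, 145, 162 and 158 against 105, 82.9 and 85.3 (0.77). In all 3 of these genes the groups did not overlap. RALGDS, an activator of Ral GTPases, differed by 1.0, CYBRD1, an iron reductase, by 0.76 and MRPS24, a protein of the mitochondrial ribosome, by 0.61, each higher in 3 of 3 pigs with overlapping groups. A pair of histone H3 genes had the largest differences of this set. HIST1H3E was 59.0, 93.9 and 153 in ITGA4+BMPR1B- cells and 0.384, 30.3 and 1.14 in ITGA4-BMPR1B- cells, a fitted difference of 4.40 that depends on the pseudocount. HIST2H3D (4.73) has the same values as a second, unnamed row, so reads may have been divided between near-identical histone copies and its value is uncertain.

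On the lower side the limma adjusted p lay between 0.289 and 0.450. SUSD5, a protein with a hyaluronan-binding link domain, was 15, 14 and 18 in ITGA4+BMPR1B- cells and 30.6, 40.0 and 44.8 in ITGA4-BMPR1B- cells (difference -1.23), without overlap. SLC39A7, a zinc transporter of the endoplasmic reticulum, was 55.2, 100.1 and 47.2 in ITGA4+BMPR1B- cells, against 85.3, 166 and 102 in ITGA4-BMPR1B- cells (-0.81), lower in 3 of 3 pigs with 1 library of overlap. CD109, a surface protein that binds TGF-beta, was 118, 80.7 and 80.3 against 203, 130 and 118 (-0.67). CDK18, a cyclin-dependent kinase of the PCTAIRE group, differed by -0.68. The remaining named genes were EZR, which links membrane to actin (-0.62), EMP3, a small membrane protein (-0.69), CRTAP, a partner of collagen prolyl 3-hydroxylation (-0.59), and CU207250.1 (-0.97), a clone name without an annotated role. PTMA, the acidic nuclear protein prothymosin alpha (-1.17), and its copy PTMAP (-1.15) can share reads and are uncertain for that reason. As deposited, a scale on which structural RNA took more of the signal in ITGA4-BMPR1B- libraries, EZR, CD109, CRTAP and EMP3 lay just above 0.

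**Figure D2:**
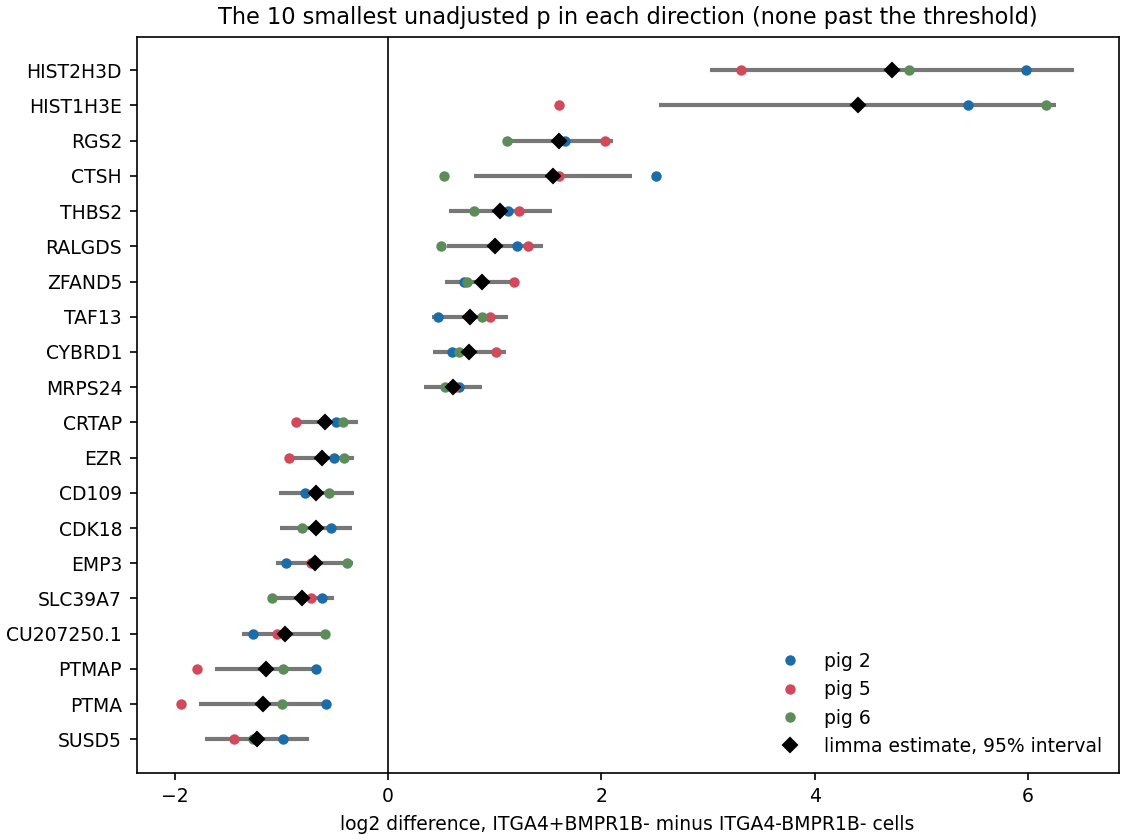
Log2 difference, ITGA4+BMPR1B- minus ITGA4-BMPR1B-, of the 10 named genes with the smallest unadjusted p in each direction; points are pigs, diamonds limma estimates and bars 95% intervals. The 3 pigs agree in sign in each gene, and the histone genes HIST2H3D (4.73) and HIST1H3E (4.40) stand far from RGS2 (1.61); none passed the threshold.

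The partners and ligands of ITGA4 were examined next. VCAM1, an adhesion molecule that the alpha 4 integrins bind, was 19.9, 28.7 and 10.7 in ITGA4+BMPR1B- cells of pigs 2, 5 and 6, against 1.74, 3.09 and 4.35 in ITGA4-BMPR1B- cells. The difference was 2.30 (SE 0.59, limma adjusted p = 0.499). Of the 12 chondrocyte libraries these 3 were the only ones in which VCAM1 was over 5, so it passed the filter on low values through the group where it was high and the groups had to differ. Without the ITGA4+BMPR1B- library of pig 2, which held markers of other cells including endothelium, VCAM1 no longer passed the filter and was not tested. The beta chains differed little: ITGB1 was 103, 110 and 122 in ITGA4+BMPR1B- cells and 128, 84 and 107 in ITGA4-BMPR1B- cells (difference 0.08, limma adjusted p = 0.927), and ITGB7 differed by 0.29 (limma adjusted p = 0.830). FN1, which encodes fibronectin, was 4143, 2286 and 1599 in ITGA4+BMPR1B- cells, against 3958, 3538 and 1795 in ITGA4-BMPR1B- cells (difference -0.24, limma adjusted p = 0.795). SPP1, the secreted ligand osteopontin, differed by 0.58 and CD47, a surface protein that associates with integrins, by 0.40, with overlapping groups. SPP1 differed by 0.19 without the ITGA4+BMPR1B- library of pig 2. Among 11 integrin subunits tested, 5 lay above 0 and 6 below, with a median of -0.02. Of these, 2 had an unadjusted p under 0.05 on the lower side, where 4.64% of all genes did: ITGA10, the collagen-binding subunit of chondrocytes (-0.44), and ITGA6, a laminin-binding subunit (-0.55).

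Genes of the lysosome leaned to the ITGA4+BMPR1B- side. Of 35 genes in the table, 28 passed the filter on low values in the list of lysosomal membrane proteins, cathepsins and acid hydrolases, and 27 of these had a difference above 0 and 1 below, with a median of 0.36 against -0.02 over all genes. None passed the test, 10 had an unadjusted p under 0.05 on the higher side (3.29% of all genes did) and 0 on the lower side, and in 7 the groups did not overlap (3.38% of all genes). The median by pig was 0.53, 0.35 and 0.27 in pigs 2, 5 and 6. The list was chosen with earlier results of these data known, and its counts include CD68, described above. CTSH, a cathepsin with aminopeptidase activity, was 61.1, 44.8 and 30.8 in ITGA4+BMPR1B- cells, against 9.86, 14.1 and 21.1 in ITGA4-BMPR1B- cells (difference 1.55, SE 0.32, limma adjusted p = 0.435). LGMN, the asparaginyl protease legumain, was 72.4, 43.4 and 44.5 against 9.48, 16.3 and 27.1 (difference 1.62, SE 0.35, limma adjusted p = 0.450). CTSK, the collagen-degrading cathepsin of osteoclasts that chondrocytes also make, was 295, 441 and 308 against 179, 271 and 214 (0.65), and SCARB2, a membrane protein that carries glucocerebrosidase to the lysosome, 21.1, 23.8 and 19.8 against 8.91, 12.8 and 16.3 (0.76). In each of these 4 genes every ITGA4+BMPR1B- library was above every ITGA4-BMPR1B- library. The within-pig gap of CTSH and LGMN was widest in pig 2 and narrowest in pig 6.

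Markers of macrophages, osteoclasts, neutrophils and endothelium were present in the ITGA4+BMPR1B- library of pig 2. The sources used here name a gate against CD45+ and CD31+ cells for the synovial sort and none for the sort of pig chondrocytes. The macrophage genes other than CD14 and LYZ, 19 in number, summed to 388 in that library, to 59.1 and 7.19 in the ITGA4+BMPR1B- libraries of pigs 5 and 6, and to 5.48, 9.69 and 11.4 in ITGA4-BMPR1B- libraries. These sums include CD68. The 18 genes left without it summed to 288, 27.7 and 3.32 in ITGA4+BMPR1B- cells, against 2.53, 2.77 and 8.84 in ITGA4-BMPR1B- cells. Over the whole list of 21 genes the sums were 633, 195 and 239.5 in ITGA4+BMPR1B- cells, against 294, 190 and 276 in ITGA4-BMPR1B- cells. Only 3 genes of the list passed the filter on low values. CD68 lay above 0, and CD14 and LYZ, the other 2, lay below it (median of the 3 -0.09). C1QA, a complement subunit made by macrophages, was 42.5, 5.55 and at the floor in ITGA4+BMPR1B- cells, and at the floor, at the floor and 1.07 in ITGA4-BMPR1B- cells. CSF1R, the growth factor receptor of the lineage, was 9.76 in the ITGA4+BMPR1B- library of pig 2, and CD163, a scavenger receptor, was 0.296 there and at the floor in the other 5 libraries. The osteoclast list without CTSK and TCIRG1 summed to 459, 20.6 and 6.91 in ITGA4+BMPR1B- cells and 7.20, 3.95 and 9.41 in ITGA4-BMPR1B- cells, and the neutrophil list to 206, 0.401 and 5.11 in ITGA4+BMPR1B- cells and 3.27, 2.71 and 8.60 in ITGA4-BMPR1B- cells. The 12 endothelial markers, which include PECAM1 and CLDN5, summed to 159, 18.2 and 38.2 in ITGA4+BMPR1B- cells, against 36.3, 22.8 and 57.9 in ITGA4-BMPR1B- cells, and 11 of them were over 1 in the ITGA4+BMPR1B- library of pig 2. Endothelial cells also express VCAM1, and the part of these markers in the differences of VCAM1 and RGS2 was not tested. Without that library RGS2 differed by 1.53 (limma adjusted p = 0.223). The macrophage markers other than CD68 and the osteoclast markers were high together with CD68, CTSH and LGMN in pig 2, and their part in the lysosomal differences was not tested. CTSH, LGMN, CTSK and SCARB2 were also higher in the ITGA4+BMPR1B- library of pig 6, by less than in pigs 2 and 5 for CTSH and LGMN. Without the ITGA4+BMPR1B- library of pig 2, 23 of 28 lysosomal genes lay above 0, 7 had an unadjusted p under 0.05 and the median was 0.33, with CTSH at 1.12 and LGMN at 1.11. The ITGA4+BMPR1B- library of pig 5, with its macrophage sum of 59.1 (27.7 without CD68), remained in that fit.

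**Figure D3:**
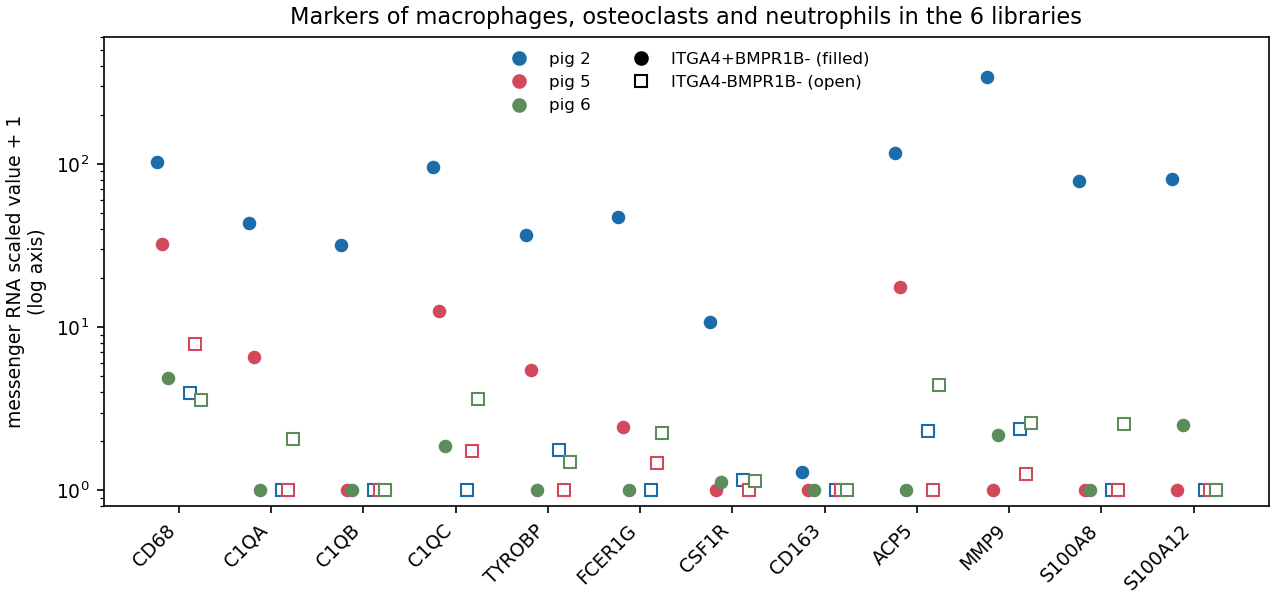
Scaled value plus 1 (log axis) of 12 transcripts of macrophages, osteoclasts and neutrophils in ITGA4+BMPR1B- (filled, left of each pair) and ITGA4-BMPR1B- (open) libraries, coloured by pig. The ITGA4+BMPR1B- library of pig 2 has the highest point for every gene shown, and that of pig 5 is second for C1QA (5.55) and C1QC (11.6); these genes were chosen after their values were seen.

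Cell cycle transcripts were low, many of those listed did not pass the filter on low values, and none passed the test. Of 22 genes of the G2 and M phases in the table, 11 passed the filter, and of these 10 lay above 0 with a median of 0.98 (by pig 1.06, 1.27 and 0.43). In this list 5 genes had an unadjusted p under 0.05 on the higher side (3.29% of all genes did), and in 6 all ITGA4+BMPR1B- libraries lay above all ITGA4-BMPR1B- libraries (3.38% of all genes). UBE2C, a ubiquitin-conjugating enzyme of mitotic exit, was 8.65, 9.49 and 14.9 in ITGA4+BMPR1B- cells of pigs 2, 5 and 6, against 0.747, 2.74 and 2.93 in ITGA4-BMPR1B- cells (difference 1.99, SE 0.43, limma adjusted p = 0.450). TPX2, a spindle assembly factor, was 4.08, 3.81 and 3.06 against 1.44, 1.22 and 1.76 (0.91), and MKI67, the nuclear antigen Ki-67 of cycling cells, 5.30, 3.22 and 4.06 against 0.629, 0.857 and 2.75 (1.19). CKAP2, a spindle protein, differed by 1.22, and none of the 4 overlapped between groups. Among the libraries compared, UBE2C was over 5 only in ITGA4+BMPR1B- cells, MKI67 only in that library of pig 2 and TPX2 in none. Genes near the filter can pass it through libraries where they are high. The shares of all genes are therefore not a like background for the counts of this list. The 7 of 16 genes of the G1 and S phases that passed the filter lay above 0 with a median of 0.48, but by pig the median was 0.53, -0.26 and 0.37, 3 of the 7 lay above 0 in pig 5, and only RRM1, a subunit of ribonucleotide reductase (0.56), had an unadjusted p under 0.05. Without the ITGA4+BMPR1B- library of pig 2 the median was 0.78 for the G2 and M genes and 0.03 for the G1 and S genes, with MKI67 at 0.74 and RRM1 at 0.31. With a pseudocount of 5 the median of the G2 and M genes was 0.43. As deposited, 5 of them were tested, with a median of 0.50 against 0.37 over all genes, and 0 had an unadjusted p under 0.05. Among genes of cell cycle arrest, MDM2, which targets p53 for degradation, was -0.66 and CDKN2C, an inhibitor of CDK4 and CDK6, 0.75. As deposited MDM2 was 0.05.

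Cartilage matrix genes leaned to the other side. Of 19 genes present, 15 were tested, of which 13 lay below 0 and 2 above with a median of -0.38, although 11 lay above 0 as deposited, where the median of the list was 0.25 and that of all genes 0.37. In the list 6 genes had an unadjusted p under 0.05 on the lower side (4.64% of all genes did) and in 5 all ITGA4+BMPR1B- libraries lay below all ITGA4-BMPR1B- libraries (4.27% of all genes). COL9A2, a chain of the type IX collagen that coats type II fibrils, was 267, 127 and 319 in ITGA4+BMPR1B- cells, against 412, 358 and 470 in ITGA4-BMPR1B- cells (difference -0.89, SE 0.25, limma adjusted p = 0.527). The COL2A1 values above gave a difference of -0.81 (SE 0.34, limma adjusted p = 0.617), and leaving out the ITGA4+BMPR1B- library of pig 2 gave -1.30, since that pig had the narrowest gap. ACAN was 2097, 1365 and 1804 in ITGA4+BMPR1B- cells and 2764, 2602 and 2556 in ITGA4-BMPR1B- cells (difference -0.61, limma adjusted p = 0.550). SOX9 was 2804, 1013 and 1117 against 3912, 1842 and 1354 (difference -0.54, limma adjusted p = 0.527), with the pig 2 libraries above the others in both groups. MATN1, a cartilage matrilin, ranged from 2.46 to 118 between pigs and differed by -0.85. As deposited, ACAN was 0.11, SOX9 0.18 and COL2A1 -0.09. Without pig 5, 1 gene of the list had an unadjusted p under 0.05. The list median was -0.20 with 10 of 15 genes below 0 without the ITGA4+BMPR1B- library of pig 5, and -0.58 with 14 below without that of pig 2.

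Genes that build glycosaminoglycan chains, the sulphated sugars of aggrecan, had a median closer to that of all genes. Of 32 present, 24 were tested, of which 18 lay below 0 with a median of -0.10 (-0.24 to -0.06 when a library was left out), while 17 of the 19 tested as deposited lay above 0. Of the 24, 4 had an unadjusted p under 0.05 on the lower side (4.64% of all genes did) and 1 on the higher side (3.29%). CHST3, a chondroitin sulphotransferase, was 260, 67.9 and 59.2 in ITGA4+BMPR1B- cells, against 349, 169 and 98.6 in ITGA4-BMPR1B- cells (-0.82). XYLT1, which starts the chains on the core protein, was 19.4, 5.58 and 6.95 against 25.9, 15 and 11.5 (-0.78). SLC26A2, the sulphate transporter of the growth plate, and PAPSS2, which makes the sulphate donor, differed by -0.47 and -0.35. Each of the 4 genes was lower in 3 of 3 pigs, with limma adjusted p from 0.527 to 0.604.

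Matrix genes outside these lists also lay on both sides. The pericellular type VI collagen chains COL6A3 and COL6A2 differed by -0.54 and -0.50 and the membrane proteoglycan CSPG4 by -0.87, the last without overlap between groups: 732, 298 and 523 in ITGA4+BMPR1B- cells and 1038, 781 and 864 in ITGA4-BMPR1B- cells. SPARC, a collagen-binding matricellular protein, has 2 rows in the table that differed by -0.63 and -0.57. Among the small leucine-rich proteoglycans, OGN was 39.4, 75.9 and 49.7 in ITGA4+BMPR1B- cells, against 21.8, 15.1 and 25.1 in ITGA4-BMPR1B- cells (difference 1.35, limma adjusted p = 0.563). ASPN, a relative of it that binds TGF-beta, was 8.28, 9.59 and 11.1 against 5.76, 3.66 and 5.36 (difference 0.86, limma adjusted p = 0.542), so neither gene overlapped. COL1A2, a chain of the type I collagen of bone and fibrous tissue, was 60.1, 544 and 533 against 38.9, 80.8 and 203 (difference 1.58, limma adjusted p = 0.644), a gap that was narrow in pig 2. All of the values for COL6A3, COL6A2 and SPARC were above 0 as deposited.

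Markers of the depth zones lay on both sides of 0. PRG4, which encodes lubricin of the joint surface, was 5002, 3225 and 3118 in ITGA4+BMPR1B- cells, against 4201, 1762 and 1961 in ITGA4-BMPR1B- cells (difference 0.60, SE 0.82, limma adjusted p = 0.888). GDF5, a growth factor of the developing joint surface, was 135, 28.9 and 18.2 against 192, 90.6 and 42.3 (difference -1.10, limma adjusted p = 0.563), lower in each pig. Of 14 superficial zone genes tested 9 lay above 0 (median 0.30), and of 13 genes of the deep and hypertrophic zones 11 did (median 0.34). Leaving out 1 library gave medians of 0.05 to 0.50 for the superficial and 0.19 to 0.67 for the deep list. COL10A1, the type X collagen chain of hypertrophic chondrocytes, was 176, 27.2 and 1.25 in ITGA4+BMPR1B- cells and 22.0, 3.17 and 0.704 in ITGA4-BMPR1B- cells. It was higher in 3 of 3 pigs, by 2.03 (SE 0.84, limma adjusted p = 0.617), and the pigs spanned more than the groups did. COL10A1 differed by 1.05 (limma adjusted p = 0.609) and PRG4 by 1.22 without the ITGA4+BMPR1B- library of pig 2. MMP13, the collagenase of the hypertrophic zone, was 40.5, 38.8 and 27.2 against 34.9, 11.5 and 7.66 (difference 1.20, limma adjusted p = 0.563). S100A1, a calcium-binding protein of chondrocytes, was 343, 708 and 1204 against 341, 1465 and 2007 (-0.59).

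**Figure D4:**
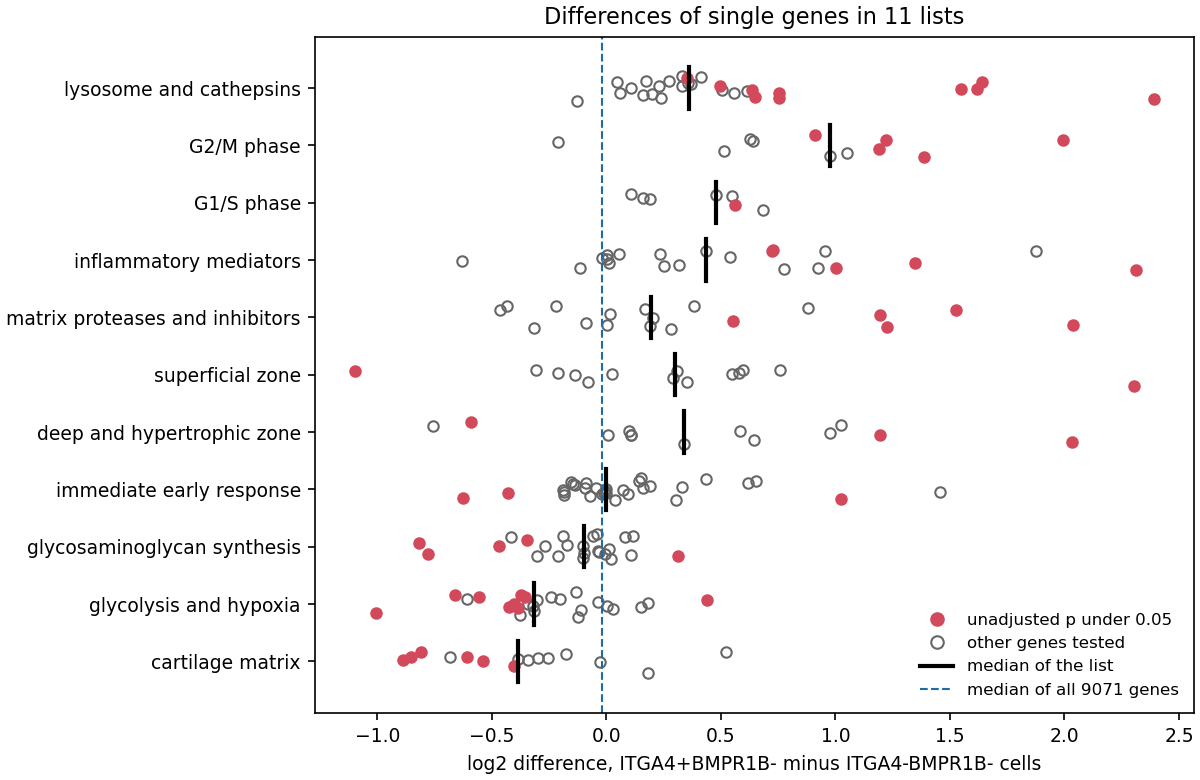
Log2 difference, ITGA4+BMPR1B- minus ITGA4-BMPR1B-, of each tested gene in 11 lists; filled points had an unadjusted p under 0.05, thick lines are list medians and the dashed line the median of all 9071 genes. The lysosome (0.36) and G2/M (0.98) medians lie right of 0 and the cartilage matrix (-0.38) and glycolysis (-0.32) medians left of it. As deposited, with all genes shifted to 0.37, the same lists read 0.79, 0.50, 0.25 and 0.26 in that order.

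Glycolysis and hypoxia genes lay mostly below 0. Of 29 present, 25 were tested, of which 20 were below and 5 above, 8 had an unadjusted p under 0.05 on the lower side (4.64% of all genes did) and 1 on the higher side (3.29%), and the median was -0.32, although 21 of 23 lay above 0 as deposited with a median of 0.26. ENO1, the glycolytic enzyme enolase, was 589, 302 and 445 in ITGA4+BMPR1B- cells, against 978, 497 and 521 in ITGA4-BMPR1B- cells (difference -0.56, SE 0.15, limma adjusted p = 0.527). CA9, a carbonic anhydrase induced by low oxygen, was 32.5, 6.15 and 12.8 against 35.0, 22.1 and 31.2 (difference -1.01, limma adjusted p = 0.561). BNIP3, a mitophagy receptor of hypoxic cells (-0.66), and PGAM1, a phosphoglycerate mutase (-0.43), were lower in 3 of 3 pigs. The 6 libraries alone gave 3 genes of the list with an unadjusted p under 0.05 on the lower side in place of 8, and without the ITGA4-BMPR1B- library of pig 5 there were 2 and the median was -0.17.

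Inflammatory mediators and matrix proteases lay mostly above 0. Of 21 inflammatory genes tested (25 in the table) 18 were above 0 (median 0.43), and of 18 protease genes and inhibitors tested (29 in the table) 13 were (median 0.20). Each list held 5 genes with an unadjusted p under 0.05 on the higher side, where 3.29% of all genes had one. TLR4, the receptor for bacterial lipopolysaccharide, was 29.5, 43.6 and 89.5 in ITGA4+BMPR1B- cells, against 13.2, 20.9 and 47.9 in ITGA4-BMPR1B- cells (difference 1.0, SE 0.29, limma adjusted p = 0.535). The ITGA4+BMPR1B- library was the higher one within each pig, while the pigs themselves differed, so the groups overlapped. The chemokine CCL20 was 331, 17.4 and 13.6 against 151, 2.25 and 9.99 (difference 1.35, limma adjusted p = 0.550). CXCL8, the neutrophil attractant interleukin 8, was 401, 29.0 and 2.38 against 20.1, 3.44 and 2.55 (difference 2.31, limma adjusted p = 0.584), lower in ITGA4+BMPR1B- cells in pig 6. PTGS2, the inducible cyclooxygenase, differed by 0.72. Without the ITGA4+BMPR1B- library of pig 2, in which neutrophil and macrophage markers were high, the median of 20 inflammatory genes was 0.56 with 15 above 0, and CXCL8 was 1.73. The median of the 21 genes was 0.21 without the ITGA4+BMPR1B- library of pig 5, with 16 above 0 and 3 at an unadjusted p under 0.05. The protease median was 0.41 without the ITGA4+BMPR1B- library of pig 2, and without pig 5 it was 0.10 with 1 gene at an unadjusted p under 0.05.

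Among the proteases, ADAMTS5, the main aggrecanase of mouse cartilage, was 9.57, 9.31 and 4.55 in ITGA4+BMPR1B- cells, against 4.46, 2.35 and 1.58 in ITGA4-BMPR1B- cells (difference 1.23, SE 0.31, limma adjusted p = 0.465). ADAMTS1, which cleaves aggrecan and versican, was 28.9, 29.3 and 15.3 against 14.9, 0.558 and 7.56 in its row with the smaller p (difference 2.04, limma adjusted p = 0.542), and a second row of the gene differed by 0.88. MMP23B, a membrane-anchored metalloproteinase, was 5.53, 14.3 and 11.2 against 2.84, 4.91 and 1.25 (difference 1.53, limma adjusted p = 0.584). In each of these rows of the 3 genes the groups did not overlap, with all ITGA4+BMPR1B- libraries above (3.38% of all genes). Among the libraries compared, ADAMTS5 and MMP23B were over 5 only in ITGA4+BMPR1B- cells. Genes near the filter can pass it through libraries where they are high, so that share is not a like background for them. Without pig 2, ADAMTS5 no longer passed the filter.

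Signalling genes showed no common direction. Of 10 WNT ligands and receptors tested 5 lay above 0 and 5 below, with WNT1 the one member with an unadjusted p under 0.05. FZD7, a WNT receptor, was -0.28, and AXIN2, a target and brake of the pathway, was 26.6, 25.0 and 59.8 in ITGA4+BMPR1B- cells, against 54.5, 44.9 and 63.8 in ITGA4-BMPR1B- cells (difference -0.64, limma adjusted p = 0.657). Of 32 genes of BMP and TGF-beta signalling 14 lay above 0 and 18 below. BMP4, a ligand of the pathway, was 31.5, 31.2 and 37.0 against 16.3, 15.1 and 22.8, without overlap (difference 0.86, SE 0.21, limma adjusted p = 0.465), while TGFB3, a ligand of the TGF-beta branch, was -0.76. GLI1, a target and effector of hedgehog signalling, was -0.32. HOXD10, a homeobox gene of limb patterning, was 36.9, 40.8 and 34.6 against 18.6, 13.8 and 19.8 (difference 1.07, limma adjusted p = 0.563). As deposited, FZD7, AXIN2 and GLI1 lay above 0.

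Lists of stress and lipid genes showed no lean to the ITGA4+BMPR1B- side. Of 17 metallothionein, antioxidant and unfolded protein genes tested 9 lay above 0 (median 0.04), of 15 heat shock genes 8 did (median 0.0021), and of 16 genes of lipid handling 5 did (median -0.21). The genes named here were each among the 4 with the smallest p of their list, and none passed the test. SEPP1, the secreted selenoprotein P, was 110, 82.8 and 26.4 in ITGA4+BMPR1B- cells, against 0.968, 9.26 and 18.0 in ITGA4-BMPR1B- cells (difference 3.12, SE 0.89, limma adjusted p = 0.527). HMOX1, which degrades haem, was 283, 617 and 717 against 160, 321 and 359 (0.92), and the small heat shock protein CRYAB 59.8, 193 and 131 against 42.4, 58.9 and 60.7 (1.09). APOE, a lipid carrier made by many cells and by macrophages, was 54.3, 32.8 and 29.0 against 6.71, 10.8 and 19.9 (difference 1.63, limma adjusted p = 0.655). ABCA1, which exports cholesterol to such carriers, was 14.2, 17.4 and 10.7 against 3.33, 1.04 and 8.28 (difference 1.77, limma adjusted p = 0.563), and SREBF2, the activator of cholesterol synthesis, was 36.1, 27.0 and 36.5 against 46.0, 58.3 and 47.0 (-0.59). B2M, the light chain of class I antigen-presenting molecules (0.49), SERPING1, the inhibitor of complement C1 (0.75), and TMSB4X, an actin-sequestering peptide (0.73), were higher in 3 of 3 pigs. SEPP1, like CTSH, LGMN and APOE, had its widest gap in pig 2, and without the ITGA4+BMPR1B- library of that pig it differed by 2.25.

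The same contrast in BMPR1B+ cells, from other libraries of the same pigs, was set beside the contrast without BMPR1B. In ITGA4+BMPR1B+ against ITGA4-BMPR1B+ cells limma called 0 genes as well, with 663 at an unadjusted p under 0.05. The difference of the 2 differences was called for 0 of 9071 genes (smallest adjusted p 0.9999), and 327 genes had an unadjusted p under 0.05 (3.6% of the genes tested). RGS2 was 5.99, 7.52 and 15.2 in ITGA4+BMPR1B+ cells, against 2.20, 5.62 and 11.5 in ITGA4-BMPR1B+ cells, a difference of 0.62 while the difference of differences was 0.98 (SE 0.31). WNT1 differed by 1.27 with BMPR1B and 1.47 without it, although its levels were lower with BMPR1B: 26.7, 6.69 and 9.77 in ITGA4+BMPR1B+ cells. CTSH was 10.6, 14.4 and 17.8 in ITGA4+BMPR1B+ cells and 10.6, 15.2 and 13.3 in ITGA4-BMPR1B+ cells, so that its difference was 0.10 with BMPR1B and 1.55 without, and the difference of differences 1.44 (SE 0.46). UBE2C, by contrast, differed by 1.86 with BMPR1B and by 1.99 without. COL2A1 (-0.70 with, -0.81 without) and ACAN (-0.53 with, -0.61 without) were near each other too, and PRG4 was 2.17 with and 0.60 without, a gap with an unadjusted limma p of 0.209. None of these gaps passed the adjusted threshold, so in this fit the contrast was not shown to differ between BMPR1B- and BMPR1B+ cells for any gene.

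In 167 genes (1.84% of those tested) the sign in all 3 pigs without BMPR1B was opposite to that in all 3 pigs with it. ELP5 encodes a subunit of the elongator complex that modifies transfer RNA. It was 1.41, 0.00307 and 1.06 in ITGA4+BMPR1B- cells, against 7.23, 5.36 and 7.94 in ITGA4-BMPR1B- cells (-2.18). With BMPR1B it was 13.4, 5.61 and 17.7 in ITGA4+BMPR1B+ cells and 12.2, 0.00484 and 1.49 in ITGA4-BMPR1B+ cells, a difference of 1.92. That difference was only 0.12 in pig 2 and rested on low values in the ITGA4-BMPR1B+ libraries of pigs 5 and 6. The 6 genes that follow also had a small unadjusted p for the difference of differences, but not opposite signs in every pig. STMN1, a microtubule regulator of dividing cells, was 9.56, 4.86 and 9.51 in ITGA4+BMPR1B- cells and 5.31, 9.51 and 11.9 in ITGA4-BMPR1B- cells (-0.13), against a difference of 1.92 with BMPR1B, where it was 19.7, 60.8 and 54.5 in ITGA4+BMPR1B+ and 4.96, 9.82 and 19.4 in ITGA4-BMPR1B+ cells. CH242-142L3.3, a clone name without an annotated role, was -3.20 without and 2.65 with BMPR1B, each carried by libraries at the floor. HIST1H3E, the histone gene with one of the largest differences without BMPR1B, was 28.2, 414 and 294 in ITGA4+BMPR1B+ cells and 58.6, 322 and 284 in ITGA4-BMPR1B+ cells, a difference of -0.21. Of smaller size were SLC50A1, a sugar transporter (0.27 without, -0.47 with), FBXL7, an F-box protein (0.49 and -0.16), and ITPKB, an inositol phosphate kinase (0.49 and -0.46). The unadjusted limma p of the difference of differences was 0.00105 for ELP5, the smallest of these, and 0.00777 for ITPKB, the largest.

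**Figure D5:**
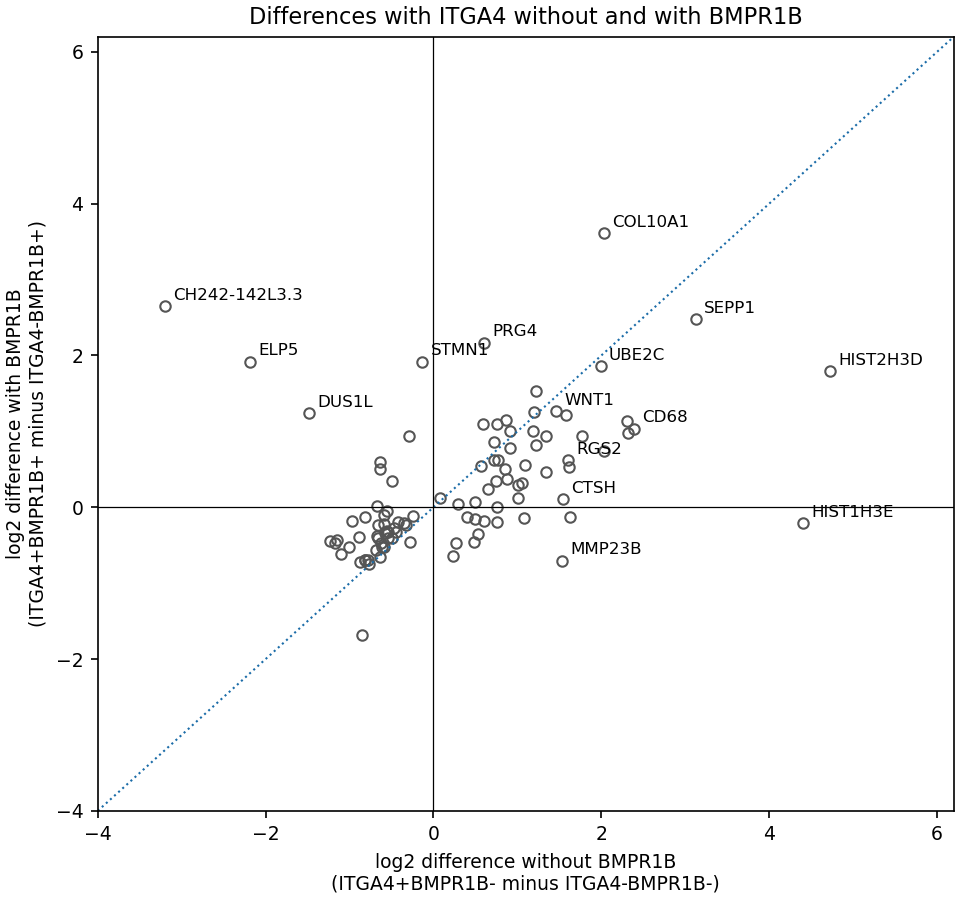
Log2 difference with ITGA4 in cells without BMPR1B (x axis) and with BMPR1B (y axis) for the genes named in the text that passed the filter; the dotted line marks equal differences. UBE2C (1.99, 1.86) lies near the line, HIST1H3E (4.40, -0.21) and CTSH (1.55, 0.10) lie far to its right, and ELP5 (-2.18, 1.92) lies in the opposite quadrant.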

How the data were processed

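Sorted adult pig knee chondrocytes gave total RNA (Qiagen Micro kit) for NuGen Ovation SoLo libraries, which were read from both ends on an Illumina HiSeq. The authors aligned with STAR to an Ensembl Sus scrofa reference and quantified transcripts in Partek by expectation maximisation. Tool versions and the normalization used: not given in the sources used here. The authors deposited 1 table of normalised signal for 25322 genes in 15 libraries, with 0.0001 as its floor and equal library totals, so the number of reads behind a value is unknown.

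Rows of structural RNA (1114) and mitochondrially encoded RNA (37) were left out. Each of the 12 chondrocyte libraries was scaled by a median-ratio factor from 11967 messenger RNA rows and brought to a mean total of 1e+06. Genes over 5 in 3 or more libraries entered limma 3.58.1 in R 4.3.3 (trended prior) on log2(value + 1), fitting the 12 libraries with population and pig as terms, and p values were adjusted over all 9071 genes by the method of Benjamini and Hochberg (threshold 0.05). The share of mitochondrial RNA was compared by exact tests. Steps between low values gave relative depths. The method was tested on simulated data. The pig pairs the libraries because each number is 1 animal: after the population means were removed, the closest library by correlation came from the same pig for 12 of 12.

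Text genes were RGS2, WNT1, CD68, ITGA4, BMPR1B, COL2A1, ACAN, SOX9 and PRG4, the 10 named genes with the smallest unadjusted p in each direction, up to 4 members per list by p, and the 8 smallest p in each direction for the difference of differences. ITGB1, ITGB7, the macrophage, osteoclast, neutrophil and endothelial markers and the 2 unnamed genes with the smallest adjusted p were added after their values were seen. The members and the 46 gene lists were chosen with earlier results of these data known. Alternatives were other scalings, pseudocounts and filters, no replicate block, the 6 libraries alone, array weights, a robust prior and leaving out libraries or pigs. Scaling on rows with a symbol alone and the list values under every alternative were chosen after seeing the data. No sequences or coordinates of the build used by the authors were used here.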

Additional observations from a re-analysis of the deposited data

Results flagged for a closer look

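For 9 of the genes chosen by the naming rule, of which ELP5, MMP23B and MRPS24 are described above, the difference with ITGA4 had one sign in all 3 pigs without BMPR1B and the other sign in all 3 pigs with it, a pattern that 1.84% of all genes tested showed. The limma test of the difference of differences gave each an adjusted p of 0.9999. All but MMP23B were named for a small p of the difference of differences, a rule that favours opposite signs. Their number therefore cannot be set against the share of all genes. The 5 genes with a negative difference of differences (log2, BMPR1B- minus BMPR1B+) were ELP5 (-4.10), DUS1L (-2.72), a transfer RNA dihydrouridine synthase, ZNF684 (-1.23), a zinc finger protein, EMC6 (-1.14), a subunit of the complex that inserts membrane proteins, and NDUFA1 (-0.85), a subunit of respiratory complex I. The 4 with a positive one were MMP23B (2.23), C19orf60 (0.88), TCAF1 (0.88), which regulates TRPM channels, and MRPS24 (0.78).

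DUS1L was 3.58, at the floor and 2.15 in ITGA4+BMPR1B- cells of pigs 2, 5 and 6, against 3.67, 4.54 and 11.3 in ITGA4-BMPR1B- cells, so that pig 2 differed by only -0.03 on the log2 scale. EMC6 was 92.6, 114 and 124 in ITGA4+BMPR1B- cells and 213, 145 and 159 in ITGA4-BMPR1B- cells, while with BMPR1B it was 197, 205 and 164 in ITGA4+ cells and 144, 113 and 142 in ITGA4- cells. NDUFA1 was 13.4, 9.45 and 10.6 in ITGA4+BMPR1B- cells, against 19.2, 15.1 and 14.1 in ITGA4-BMPR1B- cells, and with BMPR1B 21.2, 13.1 and 14.1 against 15.7, 12.2 and 9.39. Neither gene overlapped between the groups without BMPR1B.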

How the results depend on the processing

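Counts of genes called for ITGA4+BMPR1B- against ITGA4-BMPR1B- cells were 1566 as deposited, 2 with a pseudocount of 5, 1 with a minimum of 1, 2 with array quality weights, 0 to 3 when a library or pig was left out and 0 in the other settings. The difference of differences gave 1 gene with a pseudocount of 5, 1 with a minimum of 1, 0 to 2 when a library or pig was left out and 0 otherwise. The 3 calls without the ITGA4+BMPR1B- library of pig 2 were unnamed genes. With no replicate block limma called 0 genes in either comparison and 263 had an unadjusted p under 0.05, against 719 with the pig as a term. The mitochondrial share differed by 13.6 points under either exact test (p = 0.25 within pigs, p = 0.1 with no replicate block, the smallest each allows), and by 11.1 to 17.6 points when a pig was left out.

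As deposited, the median of all genes was 0.37 in place of -0.02, and these genes changed sign to lie above 0: ACAN 0.11, SOX9 0.18, EZR 0.0787, CD109 0.0333, CRTAP 0.0671, EMP3 0.0335, NDUFA1 0.0599, EMC6 0.10, STMN1 0.0631, FN1 0.48, S100A1 0.0876, SPARC 0.088 and 0.13, GLI1 0.35, COL6A3 0.18, COL6A2 0.21, FZD7 0.40, AXIN2 0.0736, ITGA10 0.20, ITGA6 0.11, MDM2 0.0543, ENO1 0.16, BNIP3 0.0271, PGAM1 0.26, SLC26A2 0.14, PAPSS2 0.23 and SREBF2 0.0166. Those values keep the unequal structural RNA share, and their fit used a filter at 1 on rows of every RNA class. When a library or pig was left out, PRG4 ranged from -0.0388 to 1.22, STMN1 from -0.69 to 0.27, ITGB1 from -0.0639 to 0.29 and ITGB7 from -0.027 to 0.57. The depth behind single values is unknown, and genes at the floor have fitted differences that depend on the pseudocount.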
